A study of Mus musculus with 4 samples.

Results

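The Vcam1+ Cd72+ Lilra5+ macrophages were 412 of the 6954 cell barcodes deposited for the mouse colon, and 412 of the 4129 barcodes from which they were chosen. A barcode stands for 1 captured cell. The 4129 eligible barcodes had at least 1000 unique molecular identifiers (UMIs, 1 per captured RNA molecule), a minimum number of genes (the lowest eligible barcode had 396), a mitochondrial share up to 7%, under 20% immunoglobulin UMIs and 0 UMIs of Folr2. Members were chosen by their measured levels of Lilra5, Vcam1, Cd72 and Olfml3. Each eligible barcode was scored by the sum of ln(1 + UMIs per 10000) of these 4 genes, and the top 10% over the 4 mice together were taken. The cells came from the colon lamina propria, the connective tissue under the gut epithelium, and had been sorted for CD11b together with Ly6C or CD64. DEP 11 and DEP 13 were male C57/Bl6N mice gavaged on 5 days a week for about 6 months with 12 µg of diesel exhaust particles (DEP) in 200 µL of phosphate-buffered saline (PBS). PBS 2 and PBS 3 were male C57/Bl6N mice that received PBS alone on the same schedule. Age was not given in the sources used here, and each group held 2 mice.

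Colon macrophages are renewed largely from blood monocytes, which enter through the chemokine receptor CCR2 and lose Ly6C while they gain MHC class II, CX3CR1, CD64 and the complement subunits of C1q. Mature mucosal macrophages take up bacteria and dying cells, present antigen and are known for a restrained inflammatory response. Among the 4 genes of the score, Vcam1 encodes an adhesion molecule that binds the integrin VLA-4, and Lilra5 encodes an activating member of the leukocyte immunoglobulin-like receptors. Cd72 encodes a receptor with an inhibitory signalling motif that is best known from B cells, and Olfml3 encodes a secreted glycoprotein of the olfactomedin family.

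The deposited libraries held between 4489342 UMIs (DEP 13) and 10293703 UMIs (PBS 2). PBS 2 gave 93 members, PBS 3 gave 156, DEP 11 gave 100 and DEP 13 gave 63, with 435801 to 1091339 UMIs in all per mouse and a median of 6769 to 8721 UMIs per barcode. The levels below are UMI sums per mouse, given as CPM, the UMIs of a gene scaled to 1000000 UMIs in all. They are compared within a gene, since the 3' chemistry counts the ends of transcripts. Members were set beside 952 C1q-matched others, which are eligible barcodes outside the members whose C1qa, C1qb and C1qc score reached the lower quartile of the members. Further groups were all 3717 other eligible barcodes and 414 Folr2-positive barcodes that passed the other filters. Scrublet called 1 member (in DEP 11) a doublet. In DEP 13, 4.57% of filtered barcodes were called doublets, beside 0.405% to 1.20% in the other mice. Between mice, 39 barcode names were shared, 5 of them names of members. Markers of T and NK cells summed to 9.60 to 13.7 CPM in the members of a mouse, and those of granulocytes and mast cells to 26.1 to 43.6 CPM with 10 of 14 genes at 0. Dendritic cell markers summed to 55.1 to 64.1 CPM and stromal and endothelial ones to 60.5 to 67.5 CPM. B and plasma cell genes summed to 3551 to 9575 CPM, most of it immunoglobulin RNA, which was as high in the C1q-matched others (Igkc 3627 CPM in both).

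The genes of the score were found in most members, as the rule required, so their levels are given without a test. Lilra5 (chr7:4237754-4243463, mm10, plus strand) stood at 226 CPM in DEP 11, 282 CPM in DEP 13, 231 CPM in PBS 2 and 298 CPM in PBS 3, against 52.1 to 87.3 CPM in the C1q-matched others. Vcam1 (chr3:116109949-116129688, minus strand) stood at 277, 464, 325 and 292 CPM in the same order, against 61.5 to 69.6 CPM. Its level in the Folr2-positive barcodes, 103 to 366 CPM, overlapped that of the members. Cd72 (chr4:43446462-43454628, minus strand) stood at 846, 943, 810 and 915 CPM against 425 to 547 CPM, and Olfml3 (chr3:103722222-103738001, minus strand) at 264 to 318 CPM against 115 to 187 CPM. For each of the 4 genes, the lowest of the 4 mice in the members was above the highest in the C1q-matched others. DEP and PBS mice overlapped in all 4 genes.

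Of the members, 174 carried UMIs of all 4 genes, 211 of 3 genes and 27 of 2 genes. Among the other eligible barcodes 54 (1.45%) carried all 4. The median score was 5.28 in members and 1.17 in the others, with no gap at the boundary. The lowest member scored 4.5061 (a PBS 2 barcode with 1 UMI of Lilra5, 1 of Vcam1, 4 of Cd72 and 2 of Olfml3) and the highest barcode outside scored 4.5023 (a DEP 11 barcode with 3, 3, 8 and 2). Within 0.25 of the boundary lay 155 eligible barcodes, 75 of them members. Depth moved with membership, as 5.19% of the 828 barcodes with the fewest UMIs were members and 15.98% of the 826 with the most. When the score was computed on 1000 UMIs drawn from each barcode, 199 barcodes were in both sets of 412 (48.3% of each). The members are therefore the upper range of a continuous score.

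**Figure D1:**
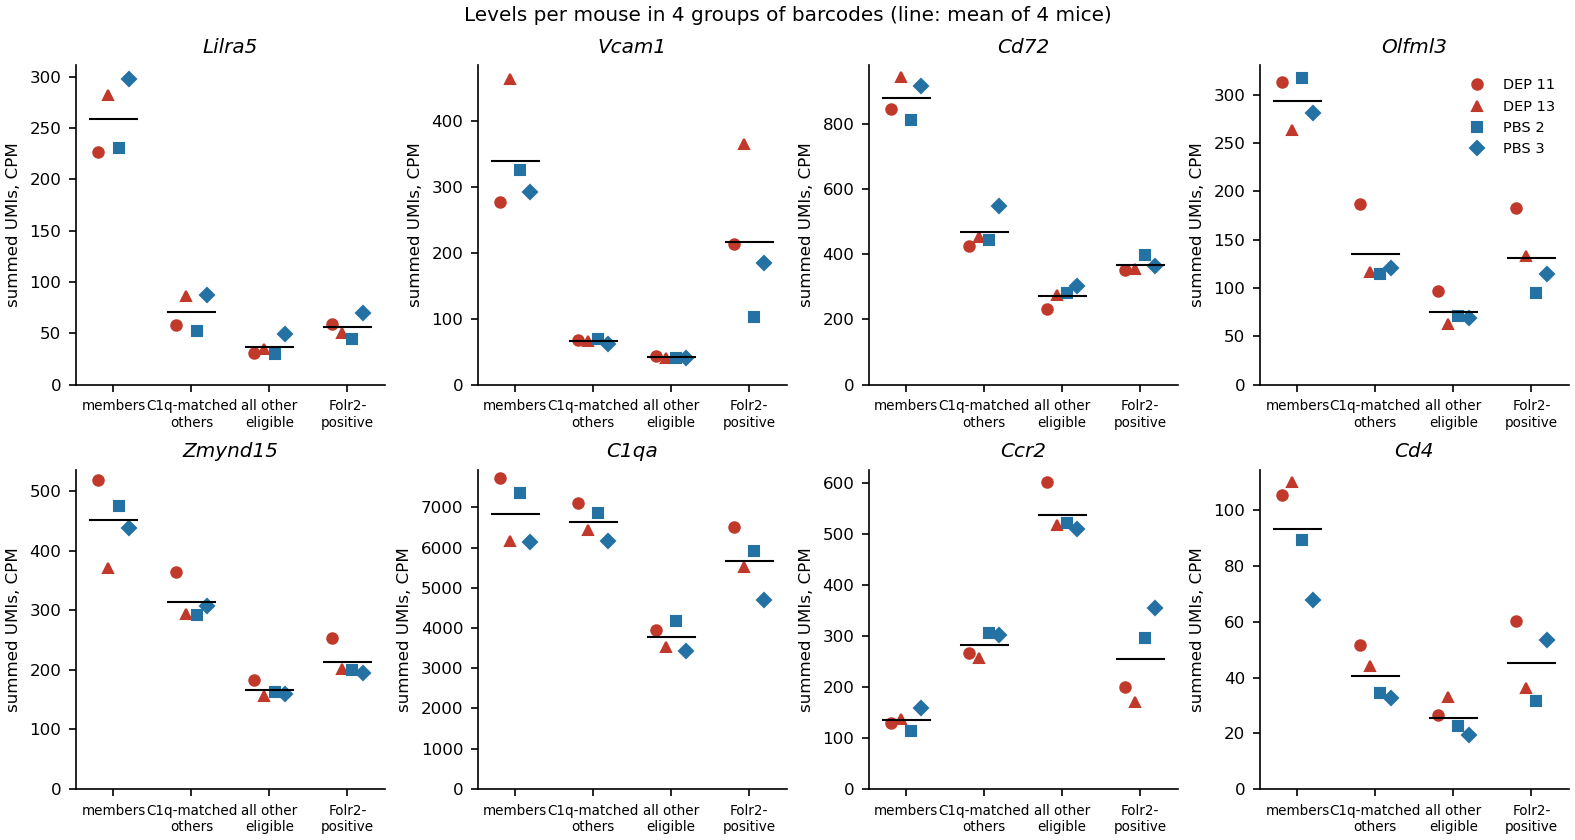
Each panel plots the summed UMIs of 1 gene in CPM for each of the 4 mice (red, DEP; blue, PBS) in members, C1q-matched others, all other eligible barcodes and Folr2-positive barcodes, with the mean of the 4 mice as a line. Lilra5, Vcam1, Cd72 and Olfml3, which chose the members, and Cd4 were highest on average in members, C1qa was at a like level in members and C1q-matched others, and Ccr2 was lowest in members.

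The remaining markers of the label, Zmynd15 and C1qa, did not enter the score. Zmynd15 (chr11:70459433-70466202, plus strand), which encodes a zinc finger repressor of transcription, stood at 518, 372, 476 and 438 CPM in members and at 364, 294, 291 and 307 CPM in the C1q-matched others. It was 1.43 fold higher in members (5 CPM added to both means here and in all folds between populations), with the same direction in 4 of 4 mice. C1qa (chr4:136895917-136898803, minus strand) stood at 6845 ± 812 CPM (SD, n = 4 mice) in members and 6641 ± 421 CPM in the C1q-matched others, whose C1q levels were matched by design, against 3772 ± 355 CPM in all other eligible barcodes. The further C1q subunit genes C1qb and C1qc were at 0.966 and 0.997 fold.

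General macrophage genes were detected. All 16 genes of the macrophage identity list had UMIs, and they summed to 23986 to 27176 CPM in members, 30130 to 30911 CPM in the C1q-matched others and 33225 to 35870 CPM in all other eligible barcodes. Against the C1q-matched others 2 were higher in 4 of 4 mice (Fcgr1 and Cd63) and 3 were lower (Lyz2, Itgam and Mrc1), beside 8.47% and 12.2% of all measured genes. The median log2 ratio over the list was 0.01. Lyz2, the lysozyme gene that holds most of the sum and is also high in monocytes, was at 16483 CPM in members and 21842 CPM in the C1q-matched others (0.755 fold). The other 15 genes summed to 8486 to 9668 CPM in members, 8458 to 8856 CPM in the C1q-matched others and 6183 to 6623 CPM in all other eligible barcodes, so the lower sum in members was that of Lyz2. Among the receptors, Adgre1 (F4/80) stood at 537 ± 38.5 CPM, Fcgr1 (CD64) at 267 ± 40.7 CPM, Csf1r, the receptor for the macrophage growth factor CSF1, at 690 ± 90.3 CPM and Cx3cr1 at 525 ± 59.0 CPM. Against the C1q-matched others Adgre1, Csf1r and Cx3cr1 were higher in 2 of 4 mice each, and Fcgr1 was 1.12 fold higher in 4 of 4. Cd81, a tetraspanin gene, was 1.09 fold (higher in 3 of 4). Mertk, a receptor for dying cells that is often used to mark mature macrophages, was low at 12.4 ± 3.83 CPM in members and 15.1 ± 2.63 CPM in the C1q-matched others. Of the 6 markers of the label only Zmynd15 was independent of how members and C1q-matched others were set, so the label was not tested by the others. In all eligible barcodes outside the members, the monocyte gene Ly6c2 stood at 209 ± 44.7 CPM, against 44.3 ± 14.8 CPM in members and 43.1 ± 20.3 CPM in the C1q-matched others.

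Ccr2 was lower in members than in the C1q-matched others although both had a like C1q level. It stood at 130, 138, 114 and 159 CPM in members of DEP 11, DEP 13, PBS 2 and PBS 3, and at 267, 258, 306 and 301 CPM in the C1q-matched others. The fold was 0.49, lower in 4 of 4 mice, and no member value reached a C1q-matched one. With each barcode thinned to 1000 UMIs, Ccr2 was seen in 12.1% of members and 25.3% of C1q-matched others. Plasma cell barcodes, which should lack this gene, showed it in 21.2% of 80 barcodes (exact binomial 95% interval 12.9% to 31.8%). That interval holds the share of the C1q-matched others, and the share in members lies under it, so neither share is read as expression. The source of the Ccr2 UMIs in plasma cell barcodes was not tested. The median depth before thinning was 7108.5 UMIs in members, 7647.5 in C1q-matched others and 20942 in plasma cell barcodes. The monocyte list as a whole had 5 of 12 measured genes lower in 4 of 4 mice and 0 higher, with S100a6 at 0.58 fold and S100a4 at 0.61 fold. Beside this, 12.2% of all 5233 measured genes were lower in 4 of 4 mice and 8.47% were higher. Measured here means a UMI in at least 10% of the barcodes of either population.

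Cd4 (chr6:124864692-124888221, minus strand), the T cell co-receptor that also marks long-lived gut macrophages, was higher in members in each of the 4 mice. It stood at 106 CPM in DEP 11, 110 CPM in DEP 13, 89.5 CPM in PBS 2 and 67.8 CPM in PBS 3, against 51.7, 44.0, 34.3 and 32.8 CPM in the C1q-matched others. The fold was 2.15 and the populations did not overlap. After thinning, 7.77% of members (exact binomial 95% interval 5.37% to 10.8%, counting error only) and 4.10% of C1q-matched others had a Cd4 UMI, and 0 of 80 plasma cell barcodes, which allows a share of up to 3.75% (3 counts of 80). The exact binomial 95% upper bound for these barcodes was 4.51%, above the share of the C1q-matched others and below that of all members. By mouse, the thinned share was higher in members than in C1q-matched others in DEP 11, DEP 13 and PBS 2. In PBS 3 it was 3.85% in members, under that bound, and 4.68% in C1q-matched others. At the full depth 8.75% of plasma cell barcodes had a Cd4 UMI, beside 34.7% of members and 20.8% of C1q-matched others. The T cell gene Cd3e was at 0.229 CPM in members. Other genes that mark long-lived, self-maintaining tissue macrophages were near 0 or lower. Timd4 was at 0.686 CPM, Lyve1 at 0.842 CPM and Cd163 at 3.98 CPM, while the growth factor gene Gas6 was at 0.73 fold and Pf4 at 0.77 fold, both lower in 4 of 4 mice. Mki67, a gene of dividing cells, was found at the full depth in 1.21% of members, 5.04% of C1q-matched others and 6.25% of plasma cell barcodes. After thinning it was found in 0.243% of members, 0.525% of C1q-matched others and 0 of 80 plasma cell barcodes.

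The genes with the largest folds of members over C1q-matched others were taken as 15 higher and 10 lower genes with the same direction in all mice, of which 14 and 10 are given here. Over all measured genes, 7 (0.134%) were at least 2 fold higher and 4 (0.0764%) at least 2 fold lower with that consistency. The genes at least 2 fold higher were the 4 named Car1, Ifit3, Hspb1 and Cd4 and the score genes Lilra5, Vcam1 and Olfml3. Car1, a carbonic anhydrase abundant in colon epithelium, was 3.51 fold higher, but it stood at 8.23, 91.8, 11.04 and 168 CPM in members of DEP 11, DEP 13, PBS 2 and PBS 3, and 24.8% of its member UMIs lay in 1 barcode. The colon epithelium list summed to 38.0 to 293 CPM in members and its part in the Car1 level was not tested. Ifit3, an interferon-induced gene, was 2.82 fold higher with 26.1% of its UMIs in 1 barcode, and Isg15, which encodes a ubiquitin-like interferon-induced protein, was 1.66 fold higher. Isg15 was 0.916 fold in members relative to all other eligible barcodes, lower in 3 of 4 mice. Of 19 measured genes of the type I interferon list, 6 were higher than in the C1q-matched others in 4 of 4 mice and 4 were lower. Over all measured genes the shares were 8.47% and 12.2%. Reads of Ifit3 and its near copy Ifit3b may not be told apart. The heat shock gene Hspb1 was 2.81 fold higher. Ganc, Acsl1, which activates long-chain fatty acids, St3gal6, H2-M2, a non-classical MHC class I gene, Col14a1, Stbd1, Cpd, Rcan1 and the chemokine gene Ccl4 were 1.59 to 1.74 fold higher.

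On the lower side, the folds ran from 0.42 for Emp1, an epithelial membrane protein, through Ahnak (0.46), the activating receptor Pira2 (0.47), Ccr2, the predicted gene Gm9844 and the complement component C3 (0.52) to Nav1, Fabp5, Capg and S100a10. Ahnak was at 29.8 to 40.5 CPM in members and at 68.4 to 96.7 CPM in the C1q-matched others. S100a10, a partner of annexin A2, and Capg, which caps actin filaments, were at 117 ± 36.4 and 49.8 ± 18.1 CPM in members and at 214 ± 26.3 and 94.6 ± 10.8 CPM in the C1q-matched others. All 10 genes were also lower in members than in all other eligible barcodes.

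**Figure D2:**
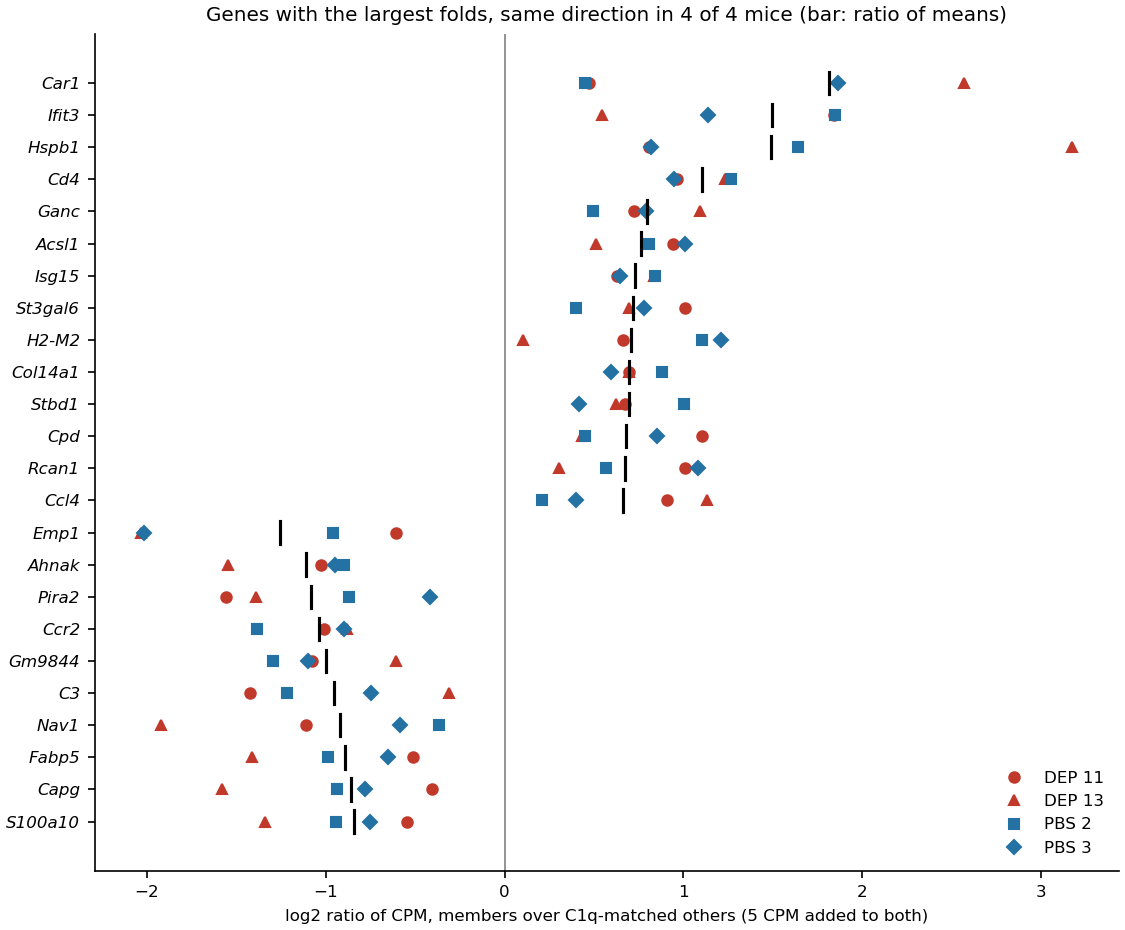
The log2 ratio of CPM in members over C1q-matched others (5 CPM added to both) is plotted for each mouse, with the ratio of the means as a bar, for 14 higher and 10 lower genes with the largest folds outside the score. Mice scatter widely for Car1 and Hspb1 and lie close together for Isg15, Cd4, Col14a1 and Ccr2.

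Antigen presentation genes lay slightly above the C1q-matched level. Of 13 measured genes of the MHC class II list, 7 were higher in 4 of 4 mice and 1 was lower (H2-DMa, 0.94 fold). Over all measured genes, 8.47% were higher and 12.2% lower in 4 of 4 mice. The median log2 ratio of the list was 0.07, beside -0.02 over all measured genes. The class II heterodimer genes H2-Ab1 and H2-Eb1 were each 1.05 fold higher, H2-Aa was 1.04 fold (higher in 3 of 4), and the invariant chain gene Cd74 was 1.10 fold higher at 63502 ± 2065 CPM. Ctss, the protease that degrades the invariant chain, was 1.20 fold higher, the costimulatory gene Cd86 1.25 fold and H2-Oa, part of an inhibitor of peptide loading, 1.45 fold higher. In the lysosome list, 8 of 26 measured genes were higher in 4 of 4 mice and 1 was lower (Psap), beside the same 8.47% and 12.2%. The lysosomal membrane genes Cd63 (1.24 fold) and Lamp2 (1.12 fold) were among the higher ones.

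Genes for uptake of dying cells and lipids split evenly, with 4 of 15 measured higher in 4 of 4 mice and 4 lower. Over all measured genes the shares were 8.47% and 12.2%. Higher were the scavenger receptor gene Stab1 (1.26 fold), the integrin genes Itgav (1.28 fold) and Itgb5 (1.23 fold), which form a receptor for opsonized apoptotic cells, and Apoe (1.16 fold, at 45012 ± 5374 CPM). Lower were Gas6, Lrp1 (0.73 fold), Msr1 (0.83 fold) and Abcg1 (0.79 fold). The mannose receptor gene Mrc1 was 0.88 fold, lower in 4 of 4 mice, and it stood highest in the Folr2-positive barcodes (290 ± 43.4 CPM against 174 ± 34.2 CPM in members). Of 11 measured haem and iron genes, 2 were higher in 4 of 4 mice and 1 was lower, beside 8.47% and 12.2% of all measured genes. Higher were Hmox1, which degrades haem, at 1.47 fold and the ferritin heavy chain gene Fth1 at 1.18 fold, and lower was the metal transporter gene Slc39a1 at 0.64 fold. In the IL-10 and TGF-beta list 4 of 14 measured genes were higher in 4 of 4 mice, among them the receptor gene Tgfbr1 (1.40 fold), and Tgfb1 was lower (0.87 fold). Il10, which mature gut macrophages are known to secrete, was at 23.3 ± 9.06 CPM in members and 30.2 ± 12.1 CPM in the C1q-matched others.

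Among inhibitory and activating receptors other than those of the score, Havcr2 (1.29 fold) and Cd300ld (1.16 fold) were higher, and the C-type lectin genes Clec4a2 (0.78 fold) and Clec4a1 (0.87 fold) and the inhibitory receptor gene Pirb (0.87 fold) were lower, each in 4 of 4 mice. Of 14 measured inflammasome and interleukin-1 genes, 1 was lower in 4 of 4 mice, a smaller share than the 12.2% of all measured genes. That was Nlrp3, which encodes an inflammasome sensor, at 17.5 ± 10.1 CPM against 27.1 ± 9.75 CPM. Il1b was at 2823 ± 476 CPM in members and 2713 ± 574 CPM in the C1q-matched others. Apol7c and Apol7a, genes of the apolipoprotein L family that marked another group of macrophages in these data, were 0.62 and 0.67 fold in members, lower in 4 of 4 mice. Pltp, of the same group, was 0.79 fold. Immediate early and heat shock genes are known to rise when tissue is dissociated. Of these, 9 of 19 measured were higher in 4 of 4 mice (8.47% of all measured genes) and 0 of 19 lower (12.2%). They included Jun (1.30 fold), Hsp90aa1 (1.23 fold), Dnajb1 (1.42 fold) and Hspa1a (1.17 fold).

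Spread among members was greatest for a few genes. After thinning to 1000 UMIs, the variance over the mean of a gene within a mouse had a median of 1.05 over 773 genes, close to the value of counting alone. Ccl8, a monocyte chemoattractant gene, ranged from 2.76 in PBS 3 to 24.4 in DEP 11, and 10.8% of its member UMIs lay in 1 barcode. Ccl4 ranged from 4.72 to 5.88 and Apoe from 5.21 to 8.32. The C1q-matched others had a like spread, with a mean over mice of 5.15 for Ccl4 (5.17 in members), 8.20 for Apoe (6.85), 3.42 for Ccl3 (2.87) and 8.08 for Ccl8 (12.3).

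Members made up 8.45% of the eligible barcodes of PBS 2 and 11.3% of those of PBS 3. Their share was 9.26% for DEP 11 and 11.03% for DEP 13. The exact binomial 95% intervals, which cover counting error only, ran from 6.88% to 10.3% for PBS 2, from 9.70% to 13.1% for PBS 3, from 7.60% to 11.1% for DEP 11 and from 8.58% to 13.9% for DEP 13. Each group had a low and a high mouse and the groups overlapped. The means were 10.1% ± 1.25 (SD, n = 2) in DEP and 9.89% ± 2.03 in PBS, a difference of 0.259 percentage points (exact two-sided permutation test, p = 1, the smallest possible p with 2 mice per group being 0.333). With the top 5% or the top 20% as members the difference was -0.373 and -1.27 points, so its direction depended on the cutoff. With the score on 1000 UMIs per barcode the shares were 9.72% for DEP 11, 11.7% for DEP 13, 8.55% for PBS 2 and 10.6% for PBS 3, a difference of 1.16 points (exact two-sided permutation test, p = 0.667).

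**Figure D3:**
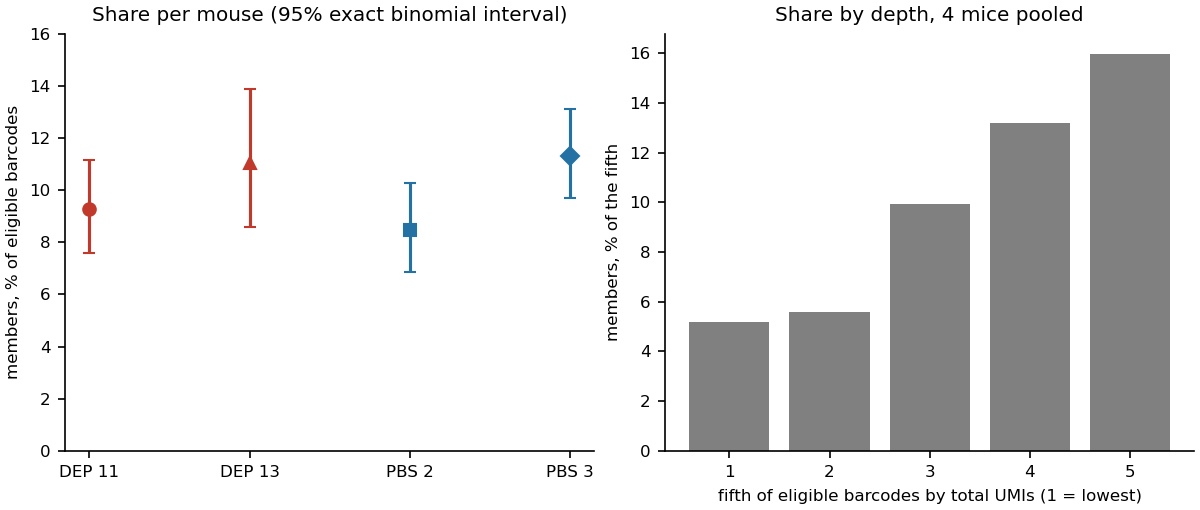
On the left, members as a percentage of eligible barcodes are plotted for each mouse with exact binomial 95% intervals. On the right, the bars give the percentage of members in 5 equal classes of eligible barcodes by total UMIs, which climbed from 5.19% in the lowest to 15.98% in the highest.

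Whether gavage with DEP changed gene expression in these macrophages was tested on the UMI sums of the 4 mice, over 6962 genes (edgeR quasi-likelihood test, false discovery rate [FDR] of 5%). In members of DEP mice, 4 genes were higher (0.0575% of genes tested) and 3 lower (0.0431%). The higher ones were Cxcl9, whose product draws in T cells through CXCR3, Apol7c, Apol7a and Ccl12, a monocyte chemoattractant. The lower ones were Phlda1, which encodes a pleckstrin homology-like domain protein, Dnajb1, an HSP40 co-chaperone of HSP70, and Bag3, another HSP70 co-chaperone. Without 1 DEP 13 barcode 0 genes passed, as described below. Leaving out a mouse gave 13 calls without DEP 11, 19 without DEP 13, 15 without PBS 2 and 5 without PBS 3, with the remaining mouse of the group assumed to vary like the other group.

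Cxcl9 (chr5:92321347-92328079, mm10, minus strand) stood at 128 CPM in DEP 11 and 131 CPM in DEP 13, and at 17.2 CPM in PBS 2 and 27.5 CPM in PBS 3. DEP mice lay above PBS mice without overlap (log2 fold change 2.49 ± 0.30 SE, FDR = 3.36e-05). With the top 5% as members the fold change was 0.952 (FDR = 0.990), and with the score on 1000 UMIs it was 0.779 (FDR = 0.9996). A Cxcl9 UMI was found in 48 of 412 members (11.7%) at the full depth, a share below that in plasma cell barcodes, which should lack the gene and were deeper. With each barcode thinned to 1000 UMIs the share was 3.16% in members (exact 95% interval 1.69% to 5.34%) and 1 of 80 plasma cell barcodes (0.0316% to 6.77%). The intervals overlap, so the share in members was not told apart from that in plasma cell barcodes. This share leaves out the UMIs per barcode, of which single members held up to 46 in DEP 13 and 29 in DEP 11. The members with a UMI were 22 of the 100 members of DEP 11, 5 of 63 for DEP 13, 10 of 93 for PBS 2 and 11 of 156 for PBS 3. A single DEP 13 member held 46 of the 57 UMIs of that mouse (80.7%). In the C1q-matched others, DEP 13 (7.54 CPM) lay below both PBS mice (23.5 and 16.7 CPM), and DEP 11 (66.2 CPM) above.

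Apol7c (chr15:77524852-77533316, minus strand) stood at 285 CPM in DEP 11 and 316.7 CPM in DEP 13 against 123 CPM in PBS 2 and 104 CPM in PBS 3 (log2 fold change 1.42 ± 0.23 SE, FDR = 0.00352). Apol7a (chr15:77388219-77399110, minus strand) stood at 45.3 and 57.4 CPM against 12.3 and 10.996 CPM (2.11 ± 0.38 SE, FDR = 0.0118). Neither gene overlapped between groups, which held for 15.2% of all genes tested in this direction. The same order was seen in the C1q-matched others of the same mice, in which 0.0554% of 7214 genes tested were called higher in DEP and 0.097% lower. Apol7a was called there (1.51 ± 0.25, FDR = 0.00617, edgeR) and Apol7c was not (0.81 ± 0.19, FDR = 0.134). Both genes belong to a family with similar members, so reads may be shared between copies. Ccl12 (chr11:82101845-82103400, plus strand) stood at 764 and 984 CPM against 476 and 356 CPM (1.09 ± 0.22 SE, FDR = 0.0376). Without DEP 13 its fold change was 0.87 (FDR = 0.335) and without PBS 3 it was 0.92 (FDR = 0.339). It was 0.31 with the score on 1000 UMIs and 0.60 with the top 20% as members (FDR = 0.9996 and 0.9995), and 0.95 without the barcode with most Ccl12 UMIs (FDR = 0.454, edgeR). Apol7a was at 2.06 without PBS 3 (FDR = 0.103, edgeR) and Apol7c was called without each mouse in turn, but neither was called with the top 5% or with the score on 1000 UMIs. Apol7c was at 0.97 with the top 20% as members (FDR = 0.221), and with no condition on Folr2 Apol7c was at 1.04 (FDR = 0.608) and Apol7a at 1.77 (FDR = 0.219). The share of members with a Ccl12 UMI was 58.0% and 66.7% in DEP mice and 74.2% and 64.1% in PBS mice at the full depth, which was greatest in PBS 2. With each barcode thinned to 1000 UMIs it was 28.0% and 31.7% in DEP mice and 27.96% and 21.2% in PBS mice.

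The 250 bases before the start of Cxcl9, Apol7c and Apol7a (RefSeq, GRCm38.p6, 5′ to 3′ on the gene's strand) are shown because these genes had the smallest p among those higher in DEP and because the DEP 13 barcode described next held UMIs of several interferon-induced genes. Capitals mark the interferon-stimulated response element, searched as GAAANNGAA or TTCNNTTTC, that is on both strands.
Apol7c (chr15:77533316-77533565): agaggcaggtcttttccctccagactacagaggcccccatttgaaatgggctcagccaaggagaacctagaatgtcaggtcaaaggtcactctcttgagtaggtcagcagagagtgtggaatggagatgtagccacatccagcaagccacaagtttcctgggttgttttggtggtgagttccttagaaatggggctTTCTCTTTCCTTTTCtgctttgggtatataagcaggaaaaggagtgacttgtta
Apol7a (chr15:77399111-77399360): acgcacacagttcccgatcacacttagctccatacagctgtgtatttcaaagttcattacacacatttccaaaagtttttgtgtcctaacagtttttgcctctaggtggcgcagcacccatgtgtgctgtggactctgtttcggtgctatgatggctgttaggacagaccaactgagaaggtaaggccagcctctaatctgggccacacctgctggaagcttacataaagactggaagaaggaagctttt
Cxcl9 (chr5:92328080-92328329): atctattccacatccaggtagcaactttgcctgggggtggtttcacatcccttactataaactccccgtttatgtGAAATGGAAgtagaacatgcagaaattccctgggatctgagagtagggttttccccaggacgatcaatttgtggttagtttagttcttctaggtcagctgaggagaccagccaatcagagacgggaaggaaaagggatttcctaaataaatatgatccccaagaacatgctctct
The Apol7c sequence held 2 overlapping matches that begin 54 and 48 bases before the start, and the Cxcl9 sequence held 1 that begins 175 bases before it. Of 32851 promoters of the same length in the table, 7.13% held this motif. In a form 1 base longer, with a further A at the end, which was searched first, 2.98% held it and Apol7c alone among these genes did. No match was found in Apol7a, Ccl12, Dnajb1 or Bag3, nor in any of the 6 genes for the heat shock element (GAANNTTC or TTCNNGAA, in 12.8% of promoters) or the interferon-gamma-activated site (TTCNNNGAA, 7.02%). A match is a run of letters in this window and no measurement of binding.

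The DEP 13 member with most Cxcl9 UMIs was described after its values were seen. It had 10975 UMIs, ranked 215 of 412 by score and was not called a doublet. Beside its 46 UMIs of Cxcl9 it held 58 of Apol7c (42.0% of the member UMIs of that mouse) and 12 of Apol7a (48.0%). Its folds were taken over all 412 members, this barcode among them, with a larger constant added to both than in the folds between populations. The 9 further genes with the largest fold, among those with at least 5 UMIs, were Gbp2 (19 UMIs), Tgtp2 (10), Tgtp1 (9), Hes1 (14), Cxcl10 (13), Sema4b (9), Ifi47 (8), Calhm6 (9) and Cd40 (7). Gbp2, Tgtp1, Tgtp2 and Ifi47 encode interferon-induced GTPases, while Hes1 is a target of Notch signalling and Sema4b encodes a semaphorin. Without this barcode edgeR called 0 of 6962 genes, with 252 at an unadjusted p under 0.05. DESeq2 called 0 (41 at an unadjusted p under 0.05) and limma voom called 2, Phlda1 and Dnajb1. Cxcl9 then had a log2 fold change of 1.85 ± 0.44 SE (FDR = 0.360, edgeR), Apol7c 1.09 ± 0.24 (FDR = 0.284) and Apol7a 1.75 ± 0.40 (FDR = 0.317).

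Among the genes lower in DEP, Dnajb1 (chr8:83608193-83612653, plus strand) stood at 248 CPM in DEP 11 and 422 CPM in DEP 13 against 657 CPM in PBS 2 and 1074 CPM in PBS 3 (-1.38 ± 0.26 SE, FDR = 0.0191, edgeR). It was found in 49.0% and 60.3% of the members of DEP mice and in 67.7% and 85.9% of those of PBS mice. Bag3 (chr7:128523616-128546981, plus strand) stood at 27.4 and 55.1 CPM against 90.8 and 148 CPM (-1.62 ± 0.33 SE, FDR = 0.0376), and Phlda1 (chr10:111506286-111508645, plus strand) at 32.9 and 68.8 CPM against 131 and 290 CPM (-2.14 ± 0.35 SE, FDR = 0.00352). In all 3 genes DEP 11 was lowest and PBS 3 highest, and the groups did not overlap, as in 15.9% of genes tested in this direction. Each gene had its 2 DEP mice below its 2 PBS mice in the C1q-matched others too, where Dnajb1 (-1.44 ± 0.25, FDR = 0.00778) and Bag3 (-1.54 ± 0.30, FDR = 0.0215) were called and Phlda1 (-1.18 ± 0.27, FDR = 0.105) was not. With the top 20% as members none of the 3 genes was called in members (FDR = 0.126 to 0.302, edgeR). Nor was any of them called in members by DESeq2, with another gene filter (filterByExpr) or with no condition on Folr2. In members, without PBS 3 Phlda1 was at -1.41 (FDR = 0.103, edgeR), Dnajb1 at -0.94 (FDR = 0.354) and Bag3 at -1.18 (FDR = 0.408). Without DEP 11 Dnajb1 (-1.01, FDR = 0.206) and Bag3 (-1.10, FDR = 0.724) were not called either, and Phlda1 was (-1.59, FDR = 0.0341).

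**Figure D4:**
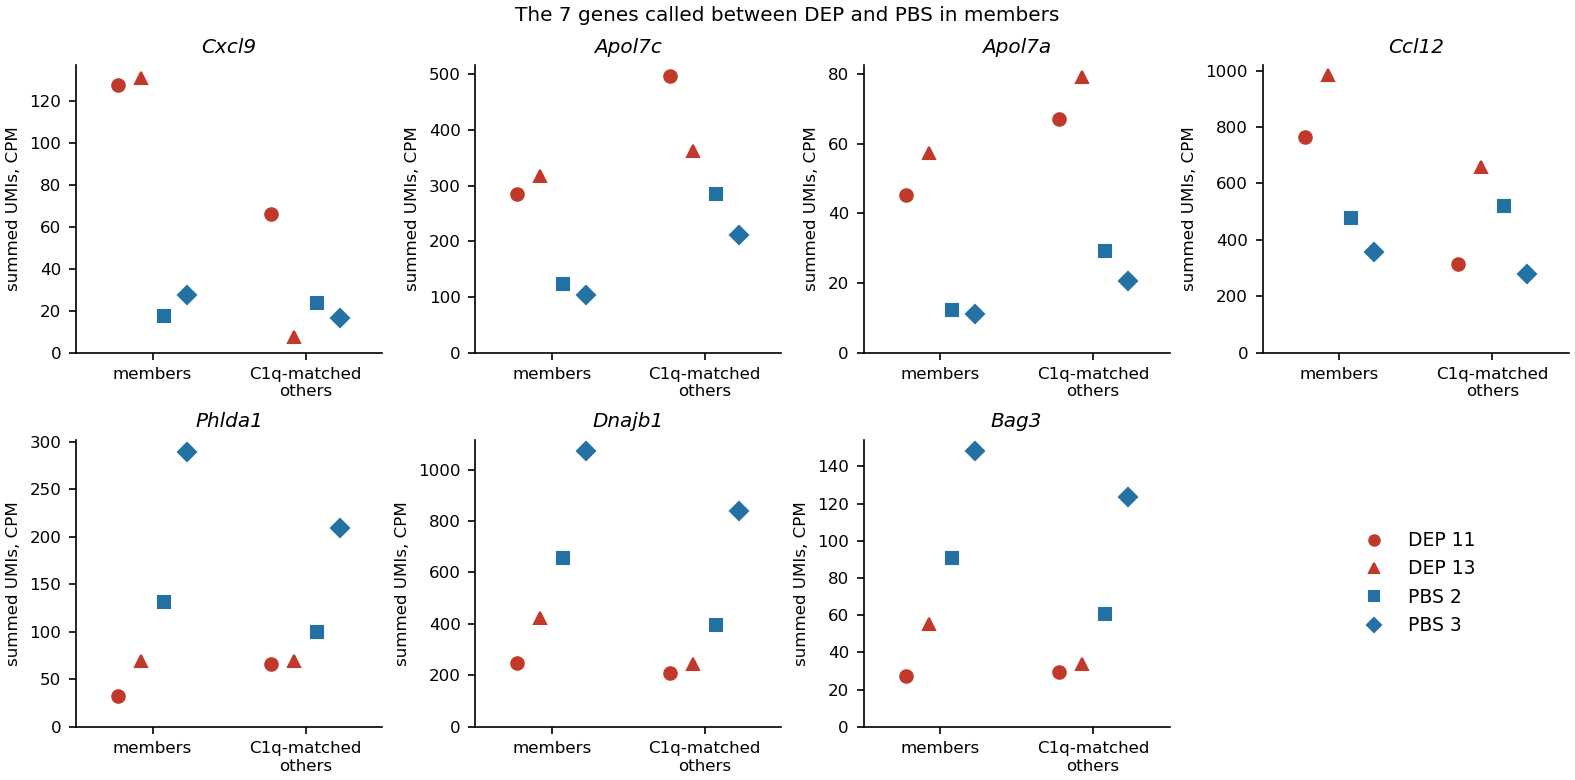
Summed UMIs in CPM are plotted for each mouse in members and in C1q-matched others for the 7 genes called between DEP (red) and PBS (blue) in members. The DEP mice lie apart from the PBS mice in all 7 genes in members, and overlap them in the C1q-matched others for Cxcl9 and Ccl12.

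Immediate early and heat shock genes were mostly lower in DEP mice. Of 20 genes tested, 2 were called lower (Dnajb1 and Bag3) and 12 were lower at an unadjusted p under 0.05 (1.92% of all genes tested). Both DEP mice lay below both PBS mice in 10 genes and above them in 0, beside 15.9% and 15.2% of all genes tested. The median log2 fold change was -0.58 in members and -0.53 in the C1q-matched others, beside 0.00 over all genes. Hspa1a, which encodes an inducible HSP70, stood at 1323 and 1441 CPM in DEP mice against 2602 and 1893 CPM in PBS mice, and Egr1, an immediate early transcription factor gene, at 108 and 94.1 CPM against 177 and 193 CPM. Neither passed the FDR. These genes are known to respond to tissue handling. No source used here gives the order in which the mice were processed, and a part of handling in the difference was not tested.

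Among 16 chemokine genes tested, 2 were called higher in DEP mice (Cxcl9 and Ccl12), 5 were higher at an unadjusted p under 0.05 (1.82% of all genes tested) and 1 lower, with a median log2 fold change of 0.33 in members and -0.09 in the C1q-matched others. Ccl8 stood at 943 and 1218 CPM in DEP mice against 879 and 484 CPM in PBS mice, and Ccl5, a T cell chemoattractant gene, at 42.5 and 75.7 CPM against 22.1 and 39.4 CPM. Ccl9 was at 154 and 158 CPM in DEP mice and 245 and 215 CPM in PBS mice. None of these 3 passed the FDR.

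**Figure D5:**
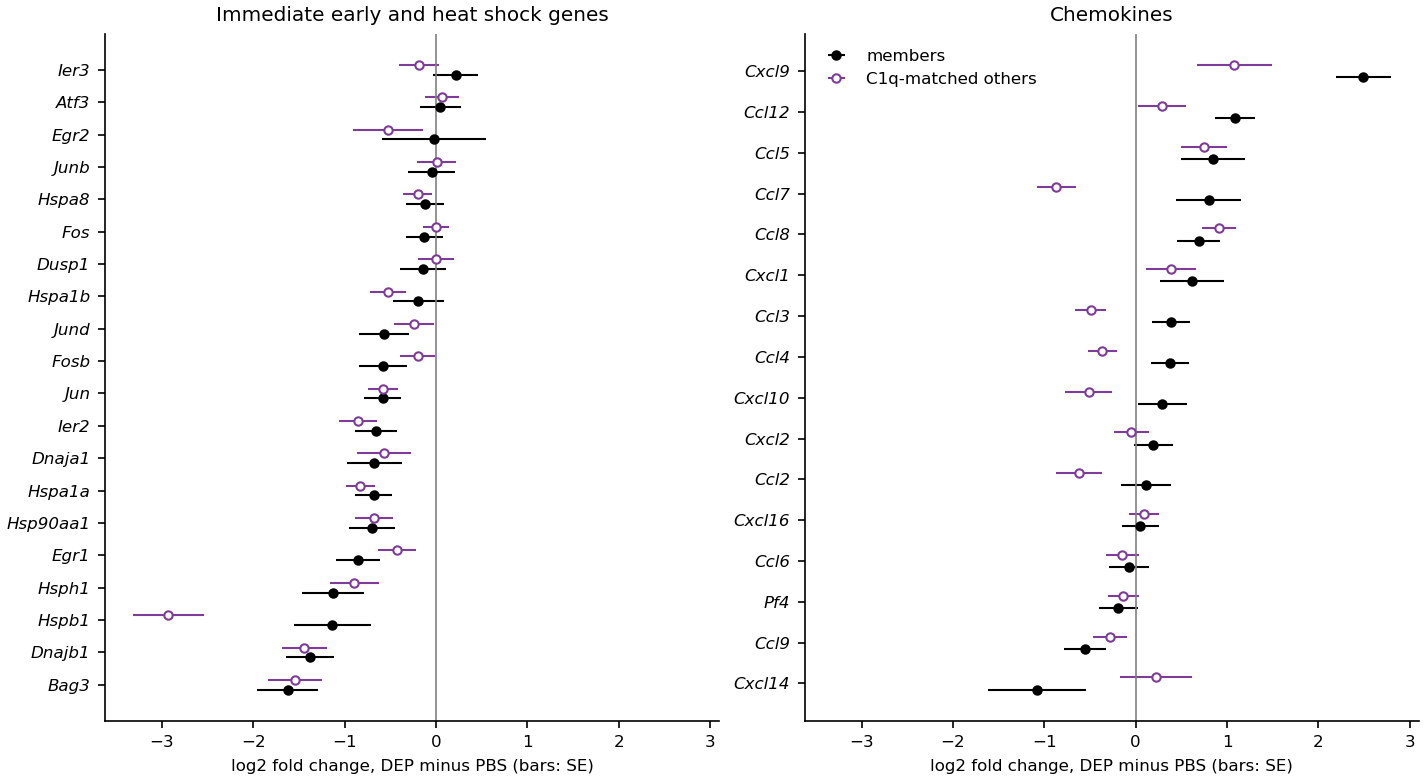
The log2 fold change of DEP minus PBS is plotted with its SE for the tested immediate early and heat shock genes (left) and chemokine genes (right), in members (black) and in C1q-matched others (open purple). Dnajb1 and Bag3 lie near -1.4 to -1.6 in both populations, while Ccl3, Ccl4 and Ccl7 lie above 0 in members and below 0 in the C1q-matched others.

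No other list had a called gene apart from the added list of markers of other macrophage and monocyte states, through Apol7a and Apol7c. The median log2 fold change was 0.03 for 14 MHC class II genes, 0.00 for 26 lysosomal genes, 0.07 for 24 type I interferon genes and -0.04 for 16 inflammasome and interleukin-1 genes. Nlrp3 stood at 27.4 and 4.59 CPM in DEP mice and 23.3 and 14.7 CPM in PBS mice, Il1b at 3224 and 2726 CPM against 3151 and 2190 CPM, and Il10 at 17.8 and 18.4 CPM against 36.8 and 20.2 CPM. Cd4 stood at 106 and 110 CPM in DEP mice against 89.5 and 67.8 CPM in PBS mice. None of these passed the FDR. In the list of genes downstream of the aryl hydrocarbon receptor and NRF2, which respond to polycyclic hydrocarbons and oxidative stress, 1 of 12 genes tested was higher and 1 lower at an unadjusted p under 0.05 (1.82% and 1.92% of all genes tested), with a median of 0.06, and neither passed the FDR. The higher one was the cystine transporter gene Slc7a11, at 43.9 and 20.7 CPM in DEP mice and 14.7 and 10.996 CPM in PBS mice. The lower one was Hmox1, at 155 and 346 CPM in DEP mice and 372 and 399.5 CPM in PBS mice.

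Whether the effect of DEP differed between members and C1q-matched others was tested as an interaction with the mouse as a block. Of 6734 genes tested, 7 had a higher log2 fold change in members (0.104%) and 3 a lower one (0.0446%). Of the 7, 4 encode chemokines. Without PBS 2 the count was 3, and without another mouse 12 to 13. Of the 7 genes called between DEP and PBS in members, Ccl12 was among the 10, and the others had an interaction FDR of 0.234 to 0.998. Ccl3, a ligand of CCR1, stood at 1094 and 1354 CPM in members of DEP mice and 1051 and 843 CPM in those of PBS mice. In the C1q-matched others it stood at 610 and 583 CPM against 934 and 763 CPM, that is lower in both DEP mice. Its fold changes differed by 0.84 ± 0.12 SE on the log2 scale (FDR = 0.000157, edgeR). Ccl4, which encodes a closely related chemokine, followed the same pattern, with 1814 and 2559 CPM against 1755 and 1657 CPM in members and 966 and 1164 CPM against 1519 and 1253 CPM in the C1q-matched others (difference 0.70 ± 0.11 SE, FDR = 0.000621).

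Ccl7 and Ccl12, monocyte chemoattractants that lie near each other on chromosome 11, also differed. Ccl7 stood at 188 and 854 CPM in members of DEP mice against 303 and 296 CPM in those of PBS mice, and at 151 and 237 CPM against 329 and 375 CPM in the C1q-matched others (difference 1.35 ± 0.23 SE, FDR = 0.00215). Its members' levels overlapped between the groups, since DEP 11 was lowest and DEP 13 highest. Ccl12 differed by 0.85 ± 0.17 SE (FDR = 0.0144), with 314 and 657 CPM in the C1q-matched others of DEP mice against 519 and 280 CPM. All 4 chemokine genes stayed under the FDR threshold when the member barcode with most UMIs of the gene was left out (FDR = 4.92e-05 to 0.0328). They did not all do so when a mouse was left out. Without PBS 2 Ccl3 remained (FDR = 0.0357), and Ccl4 (0.165), Ccl7 (0.136) and Ccl12 (0.997) did not. Ccl7 differed by 0.54 without DEP 13 (FDR = 0.641) and by 2.08 without DEP 11, and Ccl12 by 0.50 without DEP 11 (FDR = 0.375) and by 1.18 without DEP 13. In DESeq2 Ccl3 and Ccl4 were called and Ccl7 and Ccl12 were not. Other member rules also ended calls. With the top 5% as members the difference was 0.19 for Ccl3, 0.28 for Ccl4 and 1.37 for Ccl7 (FDR = 0.9998 for each), and only Ccl12 of the 4 was called. With the top 20% it was 0.45 for Ccl4 (FDR = 0.692) and 0.37 for Ccl12 (FDR = 0.999). With the score on 1000 UMIs only Ccl3 of the 4 was called, with 0.24 for Ccl4, 0.99 for Ccl7 and -0.049 for Ccl12.

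H2-M2 stood at 809 and 468 CPM in members of DEP mice against 389 and 604 CPM in those of PBS mice, with overlap, and at 510 and 436 CPM against 179 and 259 CPM without overlap in the C1q-matched others, a difference of -0.74 ± 0.15 SE (FDR = 0.0170). It was -0.21 (FDR = 0.999) with the top 20% as members, and was not called with the top 5%, with the score on 1000 UMIs or by DESeq2 either. It also lost the call without DEP 13 (-0.52, FDR = 0.255), PBS 2 (-0.79, FDR = 0.257) or PBS 3 (-0.68, FDR = 0.138) and without called doublets (-0.69, FDR = 0.0593). For the remaining genes single barcodes carried much of the level. Retnla, an alternative activation gene at 132 and 2.29 CPM in members of DEP mice and 15.9 and 16.5 CPM in those of PBS mice, had 94 of its 128 member UMIs in 1 DEP 11 barcode, and without it the difference fell from 5.31 ± 0.59 SE to 0.19 ± 1.11 SE (FDR = 0.998). That barcode was called a doublet, and without called doublets the difference was 0.26 (FDR = 0.999). Of the member UMIs of the histone genes Hist1h2ap and Hist1h2ao, 38.9% and 40.0% lay in 1 PBS 2 barcode. These genes belong to a family of near copies. Their differences of -2.29 ± 0.29 and -2.31 ± 0.29 SE became -1.28 ± 0.28 (FDR = 0.0222) and -1.21 ± 0.32 (FDR = 0.212) without that barcode, and neither was called without PBS 2 (FDR = 0.136 for each). Ifitm1, an interferon-induced gene, had 58 of 189 UMIs in 1 DEP 11 barcode (difference 2.99 ± 0.39 SE, and 1.84 ± 0.33 without it, FDR = 0.00404). Its difference was 1.37 without DEP 11 (FDR = 0.311) and 1.02 against all other eligible barcodes (FDR = 0.608), and it was not called with the top 5%, with the score on 1000 UMIs or by DESeq2. Tnip3, which encodes an inhibitor of NF-kappaB signalling and is named after its values were seen, had 74 member UMIs, 9 of them in 1 DEP 13 barcode (2.32 ± 0.43 SE, and 1.98 ± 0.51 without it, FDR = 0.263). Its difference was 0.62 with the top 5%, 1.22 with the top 20% and 0.53 with the score on 1000 UMIs, and none of these was called. Against all other eligible barcodes it was 1.47 (FDR = 0.134, edgeR), and DESeq2 did not call it. It was 1.69 without DEP 11 and 1.82 without PBS 2.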

How the data were processed

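Droplet single-cell 3' RNA sequencing (10x Genomics v2) was done on 1 well of sorted colon cells per mouse, 2 DEP and 2 PBS. The authors deposited 1 matrix of UMI counts for 28692 genes and 6954 barcodes, made from the reads against mm10. Cell Ranger was used, its version being not given in the sources used here, and the submitters' processing notes list STAR 2.6.1a and R 3.5.1. The counts were neither normalized nor filtered beyond the called barcodes, whose lowest total was 101 UMIs, and 0 value columns were left unused. The barcode suffix gave the mouse. Depth per mouse was 4489342 to 10293703 UMIs.

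Members and gene lists were chosen with earlier results of these data known, and some lists came from that earlier work. No list therefore gives independent support. UMI counts were summed per mouse over members and over C1q-matched others. Within a population, genes were tested if they exceeded 1 CPM in at least 2 sums and were seen in 5% or more of its barcodes. The interaction required 5% or more in both populations. The test was done with edgeR 4.0.16 (TMM, quasi-likelihood F test, R 4.3.3) with Benjamini-Hochberg adjustment at 5%. The interaction was fitted on the sums of both populations with the mouse as a block. Members against other cells were described without a test, since the rule used those cells. Shares were compared with an exact two-sided permutation test. Scrublet (scanpy 1.11.5) was run per mouse, and called doublets were kept except in 1 alternative. Symbols and positions came from GENCODE (mm10) and promoters from RefSeq (GRCm38.p6).

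Named genes were a fixed list, up to 5 called genes per direction with the smallest p, the 15 higher and 10 lower genes with the largest fold over C1q-matched others, and list members with counts. Of the 15 higher genes 1 is not reported here. Alternatives changed the scaling, the gene filter, the tool (DESeq2 1.42.0, limma 3.58.1 voom), the member rule and the mice. Added after seeing the data was the removal of the barcode with most UMIs of a gene.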

Additional observations from a re-analysis of the deposited data

Results flagged for a closer look

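The effect of DEP differed between members and C1q-matched others, by the interaction test at an FDR of 5% (edgeR), in 10 genes. The values are the log2 fold change of DEP over PBS in members minus that in C1q-matched others. For the chemokine genes the difference was 0.84 for Ccl3, 0.70 for Ccl4, 1.35 for Ccl7 and 0.85 for Ccl12. Ccl3, Ccl4 and Ccl7 had fitted fold changes below 0 in the C1q-matched others (-0.49, -0.36 and -0.87), none of which passed the FDR there. For H2-M2 the difference was -0.74, with a called fold change in the C1q-matched others (1.13 ± 0.20 SE, FDR = 0.00936, edgeR). The difference was 5.31 for Retnla, 2.99 for Ifitm1, 2.32 for Tnip3, -2.29 for Hist1h2ap and -2.31 for Hist1h2ao. In Retnla 73.4% of the member UMIs were in 1 barcode, and in the other 4 of these genes 12.2% to 40.0%.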

How the results depend on the processing

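With 2 mice per group, direction and call rest on few sums. The count of genes called between DEP and PBS in members was 7. It was 4 with DESeq2 size factors, 2 with filterByExpr, 12 without a gene filter, 2 with DESeq2, 3 with the top 20% as members, 4 with the score on 1000 UMIs, 1 with no condition on Folr2, 4 with the top 10% within each mouse and 0 without the DEP 13 barcode with most Cxcl9 UMIs. Leaving out each mouse gave 5 to 19. These counts can include genes other than the 7. The 7 genes kept their direction in 126 of 126 gene by alternative values and their call in 76. Cxcl9 was called in 15 of 18 alternatives and Bag3 in 6. The count of interaction calls, 10, became 4 with DESeq2, 1 with the top 5%, 4 with the top 20%, 2 with the score on 1000 UMIs, 17 with at least 2000 UMIs, and 3 to 13 when a mouse was left out. Of 180 such values for these genes, 129 kept the call, 43 kept the direction only and 8 reversed. Retnla reversed with the top 5% (-0.60) and the score on 1000 UMIs (-1.39) and ran from -0.37 to 6.03 when a mouse was left out. Hist1h2ap was at 0.26 and Hist1h2ao at 0.40 with the top 20%, and at 0.31 and 0.24 with the score on 1000 UMIs, where Ccl12 was at -0.049. The cause was not tested. The difference in member share was -0.373 points with the top 5%, -1.27 with the top 20% and -1.17 to 1.69 when a mouse was left out. Genes at least 2 fold higher in members than in C1q-matched others numbered 7 and those at least 2 fold lower 4, and 40 and 95 when each barcode was thinned to 1000 UMIs. No paired analysis was possible because the DEP and PBS mice share no replicate number. A low gene in a mouse with 63 members rests on few UMIs.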
